A study of Homo sapiens with 4 samples.

Results

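Histone genes whose proteins replace or complement the S-phase histones were examined in 2 maps of RNA polymerase II (Pol II) binding. The 7 genes are H3-3A and H3-3B, H2AZ1 and H2AZ2, H2AX, MACROH2A1 and H1-10, listed by symbol and all found among 19974 protein-coding genes of the RefSeq annotation of GRCh38.p14. Every deposited peak that touched a window from 5000 bp before the gene start to 5000 bp after the gene end was taken. In the control list 16 of 36345 peaks touched these windows, and in the knockdown list 10 of 26387.

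The maps are chromatin immunoprecipitation sequencing (ChIP-seq) of U2OS, a human osteosarcoma line, 48 h after transfection of a small interfering RNA (siRNA). The control cells received the siRNA named NC, and the knockdown cells received the one named NKAP_KD, against NKAP, a nuclear protein known for roles in transcriptional repression and splicing. Both were transfected with Lipofectamine RNAiMAX, fixed in 1% formaldehyde for 10 min and precipitated with the same Pol II antibody. The 2 input libraries of the series were not analysed here. Each condition has 1 ChIP library, so no difference between the conditions has a replicate check and no test was made. Nothing in the files reads out NKAP itself, so the knockdown is taken from the label.

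Most histones are made in S phase from clustered, intronless genes whose transcripts end in a stem-loop instead of a poly(A) tail. The genes described here are expressed largely outside that programme, and their transcripts are polyadenylated, although H2AX can also make a stem-loop form. Their proteins mark particular chromatin: H3.3 is deposited at active genes, enhancers and telomeres, H2A.Z flanks active promoters, H2AX is phosphorylated around DNA breaks, macroH2A is enriched on repressed chromatin, and the linker histone H1.10 binds the DNA between nucleosomes.

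The promoter sequences are shown because the strongest peaks lie there and because genes for the same variant differ in their letters. The 130 bases before the annotated start are printed 5′ to 3′ on the strand of the gene (RefSeq, GRCh38.p14), with the letters TATAAA and either CCAAT or its reverse complement ATTGG in capitals. H3-3A has 4 annotated starts, and only the bases before the last one, at 226062716, are printed. Each pair of genes that encodes the same variant is shown, followed by the short genes H2AX and H1-10.
H3-3A, chr1:226062586-226062715, plus strand: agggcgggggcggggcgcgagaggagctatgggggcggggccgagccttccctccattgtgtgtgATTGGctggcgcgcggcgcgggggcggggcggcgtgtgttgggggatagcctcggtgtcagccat
H3-3B, chr17:75779780-75779909, minus strand: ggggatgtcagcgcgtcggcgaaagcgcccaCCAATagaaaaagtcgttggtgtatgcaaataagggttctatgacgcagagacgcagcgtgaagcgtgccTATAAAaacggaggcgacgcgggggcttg
H2AZ1, chr4:99950276-99950405, minus strand: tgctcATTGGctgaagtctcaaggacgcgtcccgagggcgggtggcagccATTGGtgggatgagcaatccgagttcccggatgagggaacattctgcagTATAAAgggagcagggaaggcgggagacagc
H2AZ2, chr7:44848088-44848217, minus strand: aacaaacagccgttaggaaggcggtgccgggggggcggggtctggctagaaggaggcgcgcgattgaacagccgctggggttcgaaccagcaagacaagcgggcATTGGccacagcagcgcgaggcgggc
H2AX, chr11:119095466-119095595, minus strand: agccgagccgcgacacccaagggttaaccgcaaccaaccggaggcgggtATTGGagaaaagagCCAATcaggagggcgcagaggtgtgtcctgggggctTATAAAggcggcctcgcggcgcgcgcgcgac
H1-10, chr3:129316287-129316416, minus strand: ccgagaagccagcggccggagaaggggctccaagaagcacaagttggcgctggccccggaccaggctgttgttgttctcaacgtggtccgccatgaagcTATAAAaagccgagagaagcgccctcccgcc

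TATAAA, the core of the TATA box, stood 29 bp before the start of H3-3B and 31 bp before the starts of H2AZ1, H2AX and H1-10. It was in none of the promoters of H3-3A, H2AZ2 and MACROH2A1. In the 300-bp promoters, which run from 250 bp before to 50 bp after a start, TATAAA on either strand occurred in 9.46% of 22132 promoters and in 12.4% of 15812 genes with their promoters pooled. On the strand of the gene, 25 to 35 bp before the start, it occurred in 2.96%, a range chosen after the positions in these genes were seen. CCAAT, on either strand, was in the promoters of 6 of the 7 genes, all but H1-10, against 34.6% of all promoters and 42.1% of genes. GGGCGG, the core of the GC box, was in those of 5 genes, all but H2AX and H1-10, against 56.3% of promoters and 64.2% of genes. TGACGTCA, the cyclic AMP response element, was in none of the 7, against 2.26% of all promoters. The letters TTTGGCGC and TTTCGCGC, forms of the E2F element, were also in none, against 0.818% and 0.714%. H3-3A has 4 annotated starts and MACROH2A1 has 2, so these genes had more bases in which a motif could match. A match is a description of the letters and does not show that a factor binds there.

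In the control and in the knockdown map, all 7 genes had a Pol II peak within 1000 bp of either end of the gene, here called an end peak. Of all protein-coding genes, 55% had one in both. The strongest peak of each gene, the one with the highest fold in its window, lay at the promoter. Its summit, the position with the most reads in the peak, lay at most 191 bp from an annotated start in every case. Between the control and the knockdown list the summit moved by 1 to 145 bp, with a median of 24 bp, and the median over 11103 genes was 93 bp.

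The reads that cover a summit were recovered from the deposited values, as described under the processing. They are given with exact Poisson 95% intervals, and the ratio of knockdown to control is scaled by the libraries' estimated depth, 0.857. Intervals cover counting error only and leave out variation between libraries. Reads copied by PCR are not independent molecules, so the intervals can also be too narrow.

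H3-3A and H3-3B encode the same H3.3 protein from different chromosomes. H3-3B spans chr17:75776434-75779779 on the minus strand and is 3346 bp long. Its summit held 238 reads (209 to 270) in the control and 177 (152 to 205) in the knockdown, at 127 and 103 bp inside the gene. H3-3A, at chr1:226061831-226072019 on the plus strand, is 10189 bp long, and its summit held 71 reads (55.5 to 89.6) and 45 (32.8 to 60.2). H3-3B thus had more summit reads than H3-3A in both libraries, with intervals that do not overlap. The scaled ratio was 0.868 (0.710 to 1.06) for H3-3B and 0.740 (0.497 to 1.09) for H3-3A. Both intervals include 1.

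H2AZ1 and H2AZ2 encode nearly identical H2A.Z proteins. H2AZ1, at chr4:99948088-99950275 on the minus strand, is 2188 bp long, and its summit held 116 reads (95.9 to 139) in the control and 83 (66.1 to 103) in the knockdown. H2AZ2, at chr7:44826889-44848126 on the minus strand, is 21238 bp long, and its summit held 89 (71.5 to 110) and 67 (51.9 to 85.1). The intervals of the H2A.Z genes overlapped in each library, so their order was not resolved by counting. The ratios were 0.835 (0.622 to 1.12) for H2AZ1 and 0.879 (0.630 to 1.22) for H2AZ2. H2AZ1 kept its summit to within 4 bp and H2AZ2 to within 18 bp.

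H2AX, the H2A variant of the DNA damage response, spans chr11:119093874-119095465 on the minus strand and is 1592 bp long. Its summit held 125 reads (104 to 149) in the control and 102 (83.2 to 124) in the knockdown, and its ratio of 0.952 (0.726 to 1.25) was the nearest to 1 of the 7 genes. H1-10, at chr3:129314771-129316286 on the minus strand, is the shortest of them with 1516 bp. Its summit held 112 reads (92.2 to 135) and 85 (67.9 to 105), a ratio of 0.886 (0.660 to 1.18), at positions that differed by 1 bp.

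MACROH2A1, which encodes an H2A with a large globular domain, is the longest at 65507 bp, chr5:135334381-135399887 on the minus strand. It had the fewest summit reads in both libraries, 55 (41.4 to 71.6) and 36 (25.2 to 49.8), with a ratio of 0.764 (0.487 to 1.18). From most to fewest control reads the order was H3-3B, H2AX, H2AZ1, H1-10, H2AZ2, H3-3A and MACROH2A1. In the knockdown, H1-10 and H2AZ1 changed places and the rest of the order was the same. Only H3-3B stood apart from its neighbour in that order: in each library all other neighbouring genes had overlapping intervals.

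**Figure D1:**
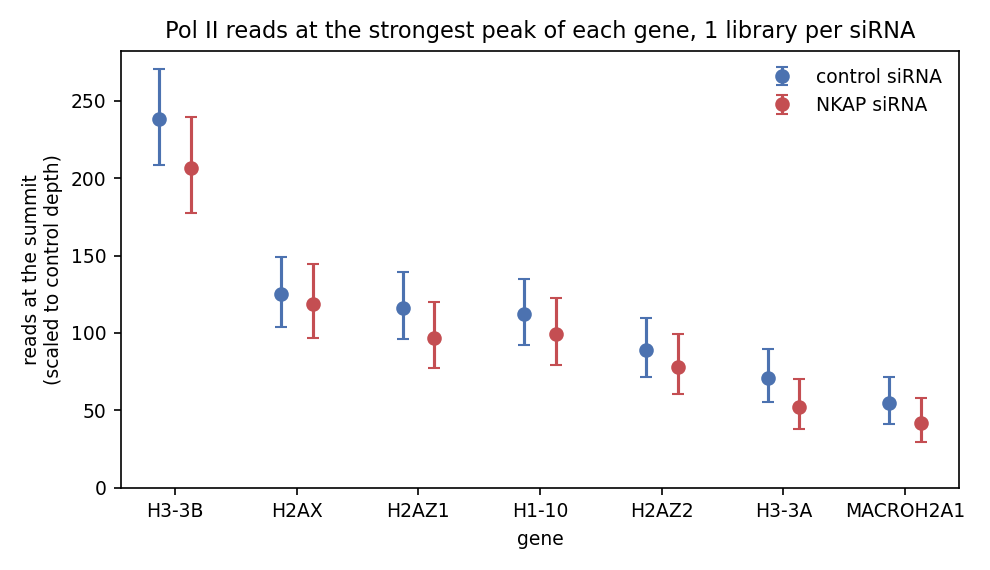
Reads at the summit of the strongest Pol II peak of each gene (vertical axis, with exact Poisson 95% intervals as bars) in the control and NKAP siRNA libraries, knockdown reads divided by the depth ratio of 0.857. H3-3B lies above the other 6 genes in both libraries, and at every gene the intervals of the 2 libraries overlap.

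All 7 scaled ratios were below 1, and all 7 intervals include 1. The median of the 7 was 0.868. Over the 11103 genes with a strongest peak at the same site in both lists the median was 0.899, with 0.778 and 1.05 as the 25th and 75th percentiles, and 67.6% of those genes were below 1. Among the 3358 of them with at least 55 control reads, the lowest number among the histone genes, the median was 0.839. Of those 3358 genes, 11.2% were lower in the knockdown by over 1.5 times. No histone gene here was lower in the knockdown by over 1.5 times, against 9.47% of all genes, and none was higher by that much, against 2.56%. Without depth scaling the median of the 7 genes was 0.744, since the knockdown library is the shallower one.

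**Figure D2:**
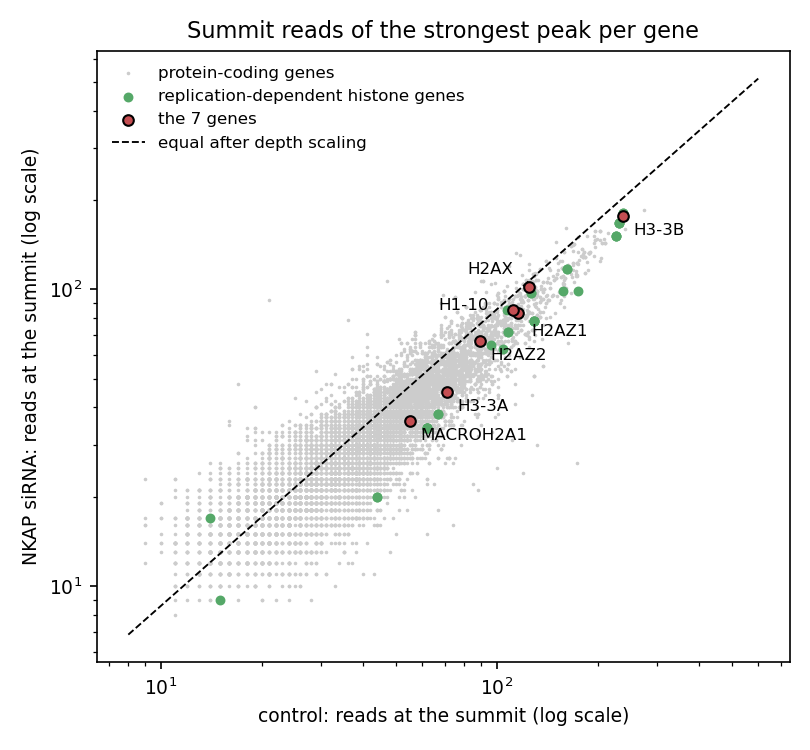
Control against NKAP siRNA summit reads of the strongest peak for every gene with 1 at the same site in both lists (grey, both axes logarithmic), with the 7 histone genes marked and the line of the depth ratio, 0.857. The 7 genes lie below that line, inside the cloud of all genes.

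The peak caller's fold divides the summit pileup by a local background, and like the deposited p it is the authors' value. Besides the recovery of reads, it serves here to describe and rank peaks within a list, and folds of both lists are set side by side with no ratio between them. H3-3B had fold 59.9 in the control list, rank 70 of 13998 genes with a peak in their window, and fold 72.9 in the knockdown list, rank 3 of 13280. H3-3A had fold 33.6, rank 686, and fold 14.2, rank 4503. The H3.3 genes therefore stood far apart in the knockdown list, and ranks from lists of different length show no change by themselves.

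The background behind these folds, not scaled for depth, differed between the lists in opposite directions at the H3.3 genes. At the summit of H3-3B it was 2.99 reads in the control and 1.26 in the knockdown. At that of H3-3A it was 1.14 and 2.00. At H3-3B, then, fewer knockdown reads went with a higher fold and a lower background, and at H3-3A fewer reads went with a lower fold and a higher background. The genome-wide background, the lowest in common use, was 1.14 in the control and 0.890 in the knockdown list. H3-3A was thus at that floor in the control. All these backgrounds are a few reads, so small differences in reads change them. The part of the background in these folds was not tested.

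Folds of the other 5 genes, control first, were 53.5 and 41.2 for H2AZ1, 25.7 and 15.8 for H2AZ2, and 44.6 and 34.1 for H2AX. They were 26.2 and 18.2 for MACROH2A1, and 37.8 and 37.5 for H1-10. H2AZ1 ranked 116 in both lists, and H2AX ranked 245 and 249. H2AZ2 ranked 1784 and 3577, MACROH2A1 ranked 1657 and 2345, and H1-10 ranked 470 and 176. The 7 genes had a median fold of 37.8 (control) and 34.1 (knockdown), and that of all genes with a peak in the window was 13.8 and 11.5. The background at H1-10 was 1.99 and 1.13 reads, beside reads of 112 and 85 and nearly equal folds.

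**Figure D3:**
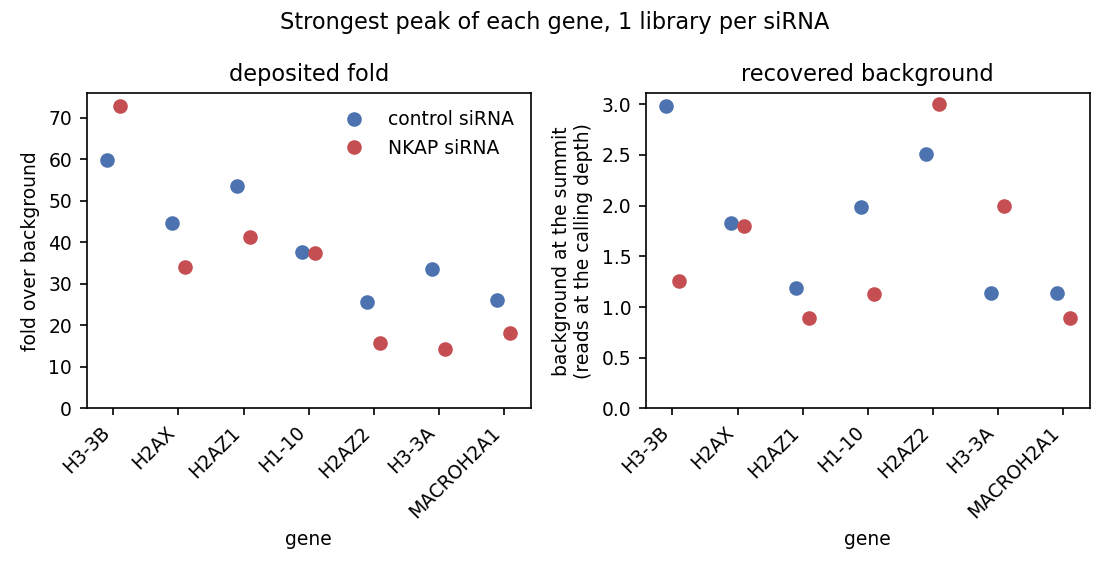
The deposited fold of the strongest peak at each gene and the local background behind it, in reads not scaled for depth, in the control and NKAP siRNA lists. H3-3B has a higher fold and a lower background in the knockdown list, and H3-3A a lower fold and a higher background.

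H3-3B, H2AZ1, H2AX and H1-10 each lay entirely under 1 Pol II peak in both lists. Of all protein-coding genes 0.686% did so, but the feature follows gene length: it held for 4.24% of genes under 5000 bp, and for 11.5% of those that also had an end peak in both lists. All 4 of the histone genes under 5000 bp were of this kind. These are also the 4 genes with TATAAA before the start. How often genes with TATAAA lie under 1 peak was not measured, so no link between the features can be read from this. The values that follow describe end peaks and folds only, with TATAAA at any position in the 300-bp promoter. Of 1366 genes with TATAAA on the gene strand of a promoter, 36.2% had an end peak in the control and 33.2% in the knockdown list, against 64.7% and 61.2% of the 14446 genes without it. Among genes with a peak in the window, the median of the highest fold was 13.5 (659 genes) and 11.8 (615 genes) with TATAAA, and 14 (10726 genes) and 11.6 (10206 genes) without it.

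The peak over H3-3B was the widest of these. It was 7772 bp in the control and 6416 bp in the knockdown list, and it ran 2639 and 2394 bp past the end of the gene. The peak over H1-10 was 5246 and 4300 bp wide and ran 2064 and 1848 bp past the end. At both genes Pol II signal called as a peak thus continued well beyond the annotated end, and somewhat less far in the knockdown list.

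The peak over H2AZ1 was 5165 and 4860 bp wide and ran 2095 and 1898 bp past the end. That stretch reaches DNAJB14, a gene for a membrane-bound chaperone partner on the same strand, whose annotated start lies 1470 bp past the end of H2AZ1. The end of the H2AZ1 peak and a promoter peak of DNAJB14 cannot be told apart in these lists.

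At H2AX the peak was 4042 bp wide in the control and 2492 bp in the knockdown list, and its run past the end was 1788 and 20 bp. In the knockdown list a separate peak of 389 bp, with 14 reads and fold 7.35, followed after a gap of 638 bp, with its summit 735 bp past the end. The stretch past the end was thus covered in parts in the knockdown list and without a break in the control. RefSeq places the whole of H2AX within DPAGT1, a gene of N-glycan synthesis on the same strand, so Pol II on H2AX and on DPAGT1 cannot be told apart there.

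**Figure D4:**
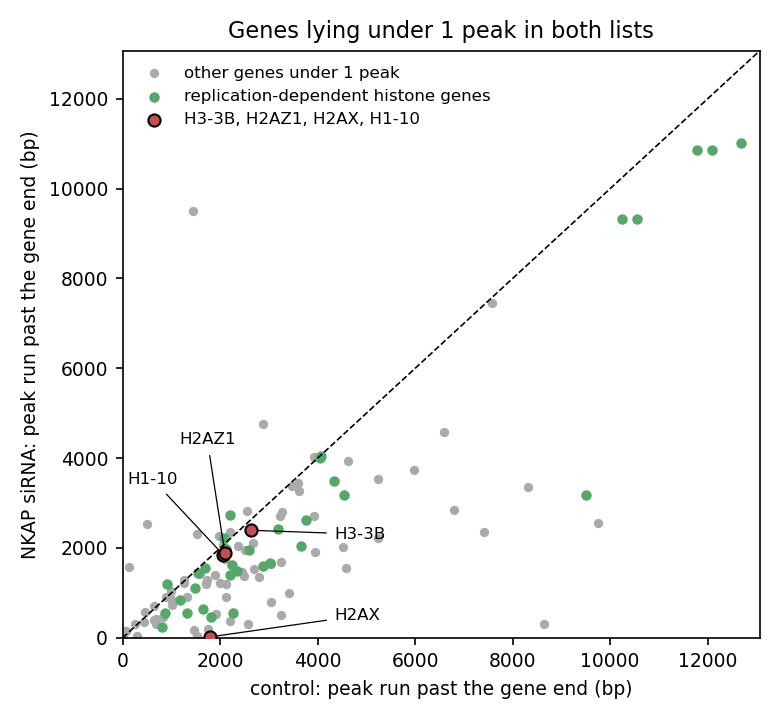
How far the peak over a gene runs past the gene end in the control (horizontal axis, bp) and the NKAP siRNA list (vertical axis, bp), for the genes of known strand that lie under 1 peak in both lists. H3-3B, H2AZ1 and H1-10 lie just below the line of equality and H2AX lies near 0 on the vertical axis.

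A shorter run in the knockdown list held for all 4 genes, and for 80.5% of the 113 genes of known strand under 1 peak in both lists. The median run past the end was 2079.5 bp for the 4 histone genes in the control and 1873 bp in the knockdown list, and for the 113 genes 2207 and 1571 bp. On the side before the start the 4 genes had a median of 1274 and 827 bp, and the 113 genes 1273 and 972 bp. H2AX was the exception there, with 662 bp in the control and 880 bp in the knockdown list.

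H3-3A, H2AZ2 and MACROH2A1, the 3 longer genes, had peaks at the promoter that covered a small share of the gene. Peaks covered 27.6% of H3-3A in the control and 18.0% in the knockdown list, 4.66% and 3.31% of H2AZ2, and 2.19% and 2.14% of MACROH2A1. The strongest peak was 2637 and 1985 bp wide at H3-3A, 2711 and 2003 bp at H2AZ2, and 1413 and 1399 bp at MACROH2A1. At the far end of these genes the only peak within 1000 bp was a weak one of 320 bp at H2AZ2, in the control list.

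Divergent or overlapping transcripts share some of these promoters. H2AZ1-DT and H2AZ2-DT, noncoding transcripts on the opposite strand, begin 219 and 345 bp before the starts of H2AZ1 and H2AZ2. H3-3A-DT begins 664 bp inside the annotated span of H3-3A, on the opposite strand. That position, chr1:226062495, lies before the last of the 4 annotated starts of H3-3A, at 226062716. H1-10-AS1 overlaps H1-10 by 16 bp. ChIP-seq carries no strand, so Pol II on these transcripts and on the histone genes cannot be told apart. PITX1-AS1 overlaps the far end of MACROH2A1, where neither list has a peak.

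**Figure D5:**
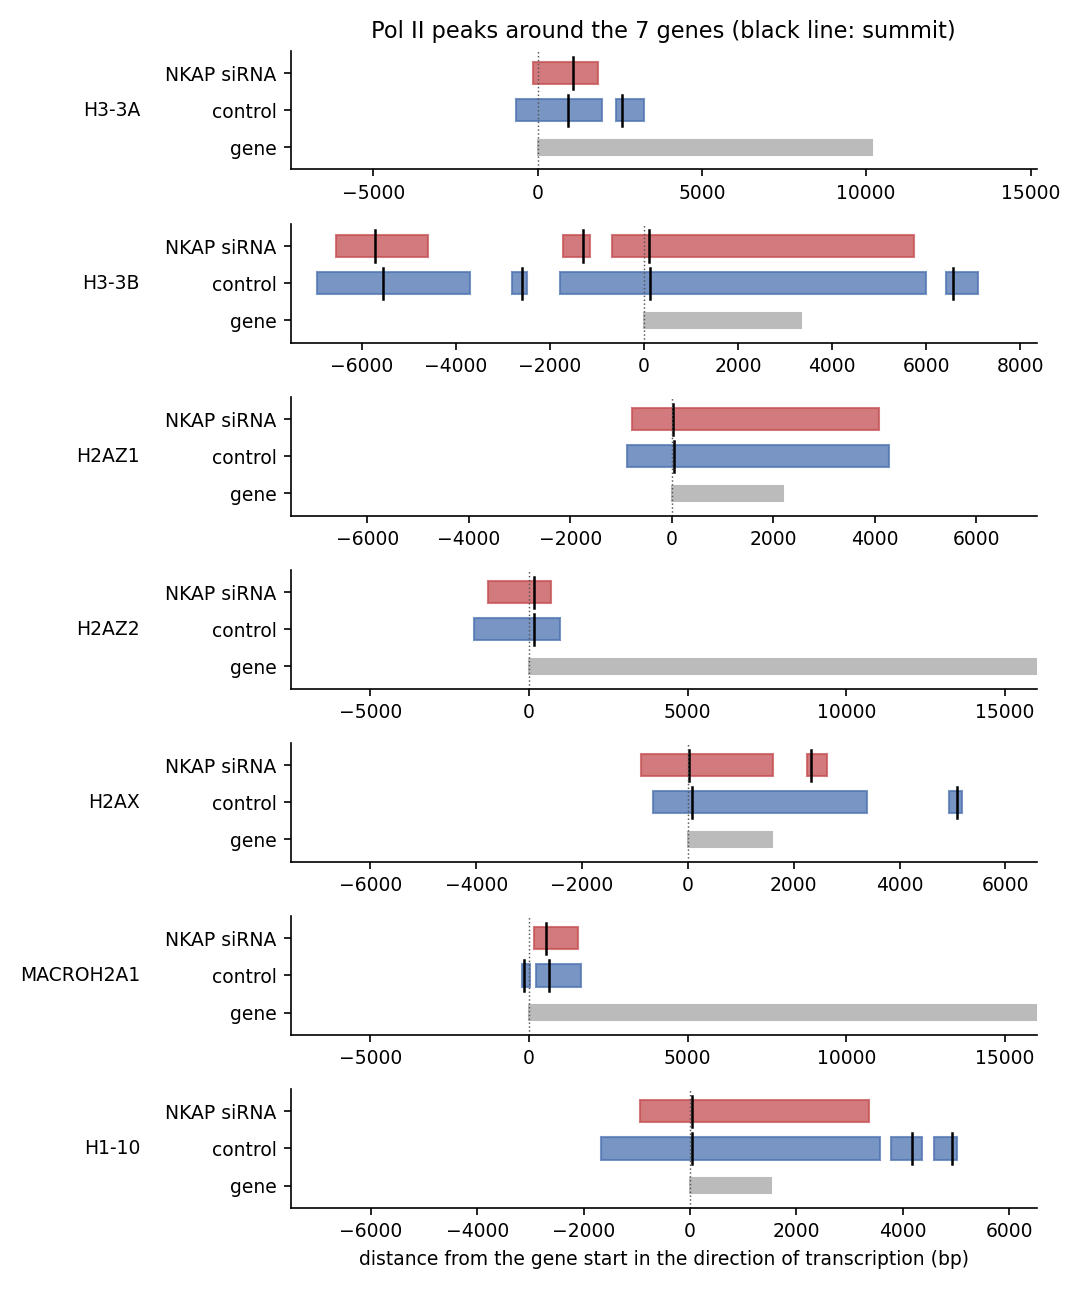
Peaks of the control (blue) and NKAP siRNA (red) lists around each gene (grey), by distance in bp from the gene start in the direction of transcription, with summits as black lines. H3-3B, H2AZ1, H2AX and H1-10 lie under 1 peak in both lists, and the maps stop at 16000 bp, so the bars of H2AZ2 and MACROH2A1 are cut and 1 control peak past the end of H2AZ2 is not drawn.

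Peaks covered 33950 bp of the windows in the control and 24829 bp in the knockdown list, a ratio of 0.731. All 7 genes had less covered length in the knockdown list, as did 86.1% of all genes with any. Per gene the covered length was 10065 and 7401 bp at H3-3B, 3477 and 1985 bp at H3-3A, and 5165 and 4860 bp at H2AZ1. It was 3031 and 2003 bp at H2AZ2, and 4289 and 2881 bp at H2AX. At MACROH2A1 it was 1659 and 1399 bp, and at H1-10 6264 and 4300 bp. The median ratio was 0.686 for the 7 genes and 0.677 for 12932 genes with some in both lists.

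Of the 16 control peaks in the windows, 8 (50%, Wilson 95% interval 28 to 72) overlapped a knockdown peak by at least 1 bp, against 54.2% in the whole list. All 10 knockdown peaks (100%, interval 72.2 to 100) overlapped a control peak, against 82.8% of all. Both intervals take the peaks as independent, although several share a window. The 8 control peaks with no counterpart were weak, with folds from 4.01 to 7.47 and 11 to 16 summit reads. Of these, 5 had the summit past a gene end: 1 each at H3-3B, H2AZ2 and H2AX, 3220, 972 and 3486 bp past it, and 2 at H1-10, 2661 and 3417 bp past it. Another 2 lay before a start, 2598 bp before H3-3B and 156 bp before MACROH2A1, and 1 lay inside H3-3A, 2563 bp from its start. The other 8 control peaks in the windows, which did overlap one, had folds of 17.8 or more. Over the whole control list, 30.2% of the 19419 peaks with folds from 4.01 to 7.47 overlapped a knockdown peak, a value that describes such weak peaks and is no comparison, since the 8 peaks without a counterpart set that range. With the control list reduced to as many strongest peaks as the knockdown list holds, 72.7% of the control peaks in the windows were overlapped.

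H3-3B alone had a further knockdown peak before its start, 583 bp wide, with fold 7.07 and 16 reads, 1304 bp upstream and within the stretch that the control peak over the gene covered. The window of H3-3B also touched a peak at UNK, which encodes an RNA-binding zinc finger protein. That peak had 70 control reads (fold 17.8) and 54 knockdown reads (fold 21.1).

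Genes of related function were taken from 6 lists with 67 entries. Among 14 other variant histone genes, 7 had an end peak in both lists and 7 in neither, most of the latter known for expression in germ cells. Over all protein-coding genes, 55% had an end peak in both lists. H2AJ, an H2A variant, had 96 control and 65 knockdown reads, with folds 24.3 and 29.7. Ratios are given over the genes with a strongest peak at the same site in both lists. For this list the median was 0.788 over 7 genes, 1 of them lower by over 1.5 times, and over all genes the median was 0.899 with 9.47% lower by that much. With so few genes in each of the 6 lists, their counts are a description. The share of all genes with an end peak in the control list only is not given here. Genes named below as having one in the control only are therefore set against no background. H2AB1, H2AB2 and H2AB3 are near-identical copies, so their calls are uncertain.

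Of 9 genes of H3.3 deposition, 8 had an end peak in both lists, against 55% of all genes. DAXX, an H3.3 chaperone, had none in either. HIRA, the scaffold of the chaperone complex for active genes, had folds 36.9 and 33.1 with 120 and 91 reads. UBN1, its partner, had folds 26.6 and 14.6, and ASF1B, which hands histones to it, 14.2 and 15.3. The median ratio was 0.866 over 7 genes, 2 of them lower by over 1.5 times, against 9.47% of all genes. Of 18 genes of H2A.Z exchange, 16 had an end peak in both lists, against 55% of all genes, and 2 in the control list only. These were ACTR6, an SRCAP complex subunit, with 14 control reads and fold 7.0, and EPC1 of the NuA4 complex. The strongest peak in the EPC1 window had 131 control and 90 knockdown reads, but no knockdown peak lay within 1000 bp of an end of EPC1. NAP1L1, a histone chaperone, had folds 32.2 and 17.9, and INO80, a remodeller, 29.4 and 24.1. The median ratio of the list was 0.849 over 15 genes, 3 of them lower by over 1.5 times, against the same 9.47%.

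Of 10 genes of H2AX signalling and exchange, 9 had an end peak in both lists, against 55% of all genes. The exception was MDC1, the reader of phosphorylated H2AX, with 30 control reads and fold 14.5. A knockdown peak with 13 reads and fold 6.90 lay in its window but not at a gene end. PRKDC, a kinase of H2AX, had folds 26.4 and 20.5, ATR, another, 17.3 and 19.6, and SUPT16H, a subunit of the chaperone FACT, 22.7 and 10.1. The median ratio was 0.765 over 8 genes, 3 of them lower by over 1.5 times, against 9.47% of all genes. Of 9 partners of macroH2A, H1 and CENP-A, 8 had an end peak in both lists, against 55% of all genes. HELLS, a remodeller, had one in the control only, with 18 reads and fold 6.23. PTMA, which encodes prothymosin, an H1-binding protein, had 149 and 83 reads and folds 57.8 and 35.9. SET, a histone chaperone, had folds 28.9 and 21.7, and NASP, a chaperone of H3 and H4, 24.3 and 35.3. The median ratio was 0.796 over 8 genes, 2 of them lower by over 1.5 times, against the same 9.47%.

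Of 7 genes that act in the expression of replication-dependent histones, 6 had an end peak in both lists, against 55% of all genes. CASP8AP2 had one in the control only, with 20 reads and fold 9.81. LSM10, an Sm-like protein of the U7 particle, had folds 15.1 and 24.9. SLBP, which binds the stem-loop, had 15.6 and 12.4, and NPAT, their transcriptional coactivator, 19.0 and 12.6. The NPAT peak is shared with ATM. The median ratio was 0.840 over 5 genes, 0 of them lower by over 1.5 times, against 9.47% of all genes. None of the genes with a ratio in the 6 lists was higher by over 1.5 times, against 2.56% of all genes. So low a share makes a count of 0 among so few genes near the background.

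Of 69 replication-dependent histone genes, the S-phase counterparts of the 7 genes, 41 had an end peak in both lists, 1 in the knockdown only and 27 in neither. Over all genes, 55% had one in both lists. For the replication-dependent genes the other values follow. Their median fold was 50.9 and 34.4. The median ratio of summit reads was 0.757 over 34 genes, and 10 of these were lower by over 1.5 times. None of the 7 variant genes was, but at the 9.47% of all genes that were, a count of 0 among 7 is near the background. Neighbouring genes of that class share peaks, so they are not independent. They made up 36 of the 137 genes under 1 peak in both lists, and those of known strand had a median run past the end of 2338 and 1952 bp.

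The gene with the nearest pair of within-list ranks of fold, over the 2 lists, was found for each histone gene. For H3-3B it was TUBA1C, an alpha-tubulin gene, with folds 57.3 and 62.5. H2AZ1 was nearest to GADD45B, a stress response gene, with 54.0 and 40.5, and H2AX to CKS2, which encodes a subunit of cyclin-dependent kinases, with 45.3 and 34.9. H1-10 was nearest to SCAF8, a gene for a protein that binds the Pol II tail, with 37.7 and 37.5. H2AZ2 was nearest to TBPL1, a relative of the TATA-binding protein, with 25.7 and 15.7. MACROH2A1 was nearest to RHNO1 with 26.6 and 18.2, and H3-3A to PROCA1 with 32.5 and 14.4. A pair of ranks is a thin measure of likeness, and the distances ran from 0.0143 percentage points at H1-10 to 0.828 at H3-3A.

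Across the whole lists, whole reads were recovered at 99.8% of the peaks of each list and at all 26 peaks in the windows of the histone genes. Median summit reads were 18 in the control and 19 in the knockdown list. The labels describe the U2OS cells both as bone osteosarcoma and as epithelial. Of 9 osteoblast and mesenchymal markers 4 had an end peak in both lists (COL1A1, SPARC, VIM and BGLAP), against 55% of all genes. Of 6 epithelial markers KRT8 and KRT18, which share a peak, had one, and EPCAM, CDH1, KRT14 and ESRP1 had none in either list. CDH1 had 4 control peaks in its window, none of them at a gene end. None of 3 hepatocyte and 3 lymphocyte markers had an end peak.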

How the data were processed

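Per the submitters' processing notes, reads were handled with bcl2fastq 2.17, Trimmomatic 0.33, Bowtie 1.1.2 and MACS2 2.1.0 on hg38. The settings were not given in the sources used here, nor was the background library. The deposited peak lists, 1 for each ChIP library, hold a score, a fold (a ratio of summit pileup to local background), −log10 p and −log10 q, and the lowest deposited −log10 q was 3.01 and 3.02. The authors' score was not used. Peaks outside the main chromosomes (2218 control, 1526 knockdown) were left out.

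Summit reads were recovered from fold and −log10 p together, taking the fold as pileup plus 1 over background plus 1 and p as a Poisson tail, with a tolerance of 0.01 on −log10 p. 1 read was worth 1 in the control and 0.92569 in the knockdown. The depth ratio, 0.857, was estimated from the background steps. The recovery was checked on simulated data. The ratio of reads has an exact conditional 95% interval. Gene positions and the strand of 15812 genes came from RefSeq tables of GRCh38.p14. Values were computed with python 3.11.15, numpy 2.4.6, pandas 2.3.3, scipy 1.17.1 and matplotlib 3.10.9.

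The genes, lists and alternatives were chosen with earlier results of these data known. Named are the 7 genes, from each list every gene with an end peak in 1 list only and the 2 of highest fold in each list, the gene of nearest ranks, and protein-coding genes that share a peak with a window. Some genes that this rule names are not reported here.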

Additional observations from a re-analysis of the deposited data

How the results depend on the processing

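With 1 library for each condition nothing here has a replicate check, and weak peaks near the calling threshold limit every count of peaks. Over 7 alternatives, 32 of 34 recomputed values kept their direction and stayed within an allowed range. That range was a factor of 1.5 for counts and lengths, 28 to 72% for the overlapped share, and 0.710 to 1.06 for the median ratio. Such ranges are wide. Counted inside them were 11 control peaks, beside 10 knockdown peaks, with equal numbers of strongest peaks. So was an overlapped share of 70% with windows of 2000 bp. The 2 values outside the ranges were 10 control peaks with windows of 2000 bp, and 72.7% of control peaks overlapped with equal numbers of strongest peaks. The cause was not tested. The count of 7 genes with an end peak in the control and knockdown lists, and that of 7 with less covered length, were the same under every alternative run for them.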
